A study of Mus musculus with 6 samples.

Results

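The cells described here were the OP9-DL1 feeder cells that remained in the 6 single-cell libraries. OP9-DL1 is a mouse stromal line made from bone marrow and modified to carry the Notch ligand DL1, on which T-cell progenitors are grown. A cell was kept under the limits that the study gives. These were at least 200 genes, at most 2000 unique molecular identifiers (UMIs) and at most 30% mitochondrial UMIs. A kept cell was counted as stromal when it held at least 5 UMIs in sum of 8 matrix genes. The 8 genes were Col1a1, Col1a2, Col3a1, Col5a2, Sparc, Fn1, Fbn1 and Col4a1. By this rule 2171 of 60671 kept cells (3.58%) were stromal. The other 58500 kept cells were mostly the co-cultured blood progenitors and their progeny. The study reports more cells after its filtering than were kept here, so its set of cells was not the same. The reason was not tested.

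The study asked how the timing of Bcl11b activation affects the choice between T cells and innate lymphoid cells. DN1, DN2a and DN2b progenitors, successive stages of early T-cell development, were grown from bone marrow of WT or ΔTE mice, sorted, and cultured on OP9-DL1 for 4 days before combinatorial indexing (sci-RNA-seq3). Both genotypes were adult mice of both sexes on a C57BL/6 background with YFP inserted at both Bcl11b alleles, and ΔTE mice lacked a distal timing enhancer of Bcl11b on both. Marrow was pooled from several mice, the medium held recombinant cytokines including Flt3-L, SCF and interleukins, and each of the 6 conditions (WT DN1, WT DN2a, WT DN2b, ΔTE DN1, ΔTE DN2a and ΔTE DN2b) gave 1 library. The feeder cells came from 1 line and carried no Bcl11b deletion: genotype and starting stage below refer to the cells cultured on them. Cultures were washed and passed through a mesh to reduce stromal cells before fixation, so the stromal cells counted are those that stayed.

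Bone marrow stromal cells are fibroblast-like cells that build a collagenous matrix and feed blood progenitors through short-range ligands. CXCL12 holds progenitors in place, KIT ligand sustains them, and Notch ligands such as DL1 turn them toward the T lineage. Such cells can also give rise to fat, bone and cartilage, and cells grown on plastic commonly form contractile actin fibres. The OP9 line derives from mice that lack a working Csf1 protein and is known for its ability to become fat cells.

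The stromal cells held 1639910 UMIs, from 25026 in ΔTE DN2b to 918250 in WT DN2a, with a median of 644 UMIs per cell (range 230 to 1998). The rule gave a median of 9 matrix-gene UMIs and a highest value of 50. There was no gap at the threshold, with 366 cells at 5 UMIs and 323 just outside it at 4. Across 66 other matrix and stromal genes that the rule did not use, the summed level was 539 CPM (UMIs of the genes per 1000000 UMIs of the summed cells) in cells with 0 rule UMIs and 2244 CPM at 1 to 2. It was 14214 CPM in the 679 cells at 3 to 4, 17020 CPM at 5 to 7 and 20916 CPM at 10 or more. Cells just under the threshold thus lay near the stromal cells on these genes and were counted among the other cells.

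Lymphoid RNA was lower in the stromal cells but not absent. The summed level of 24 lymphoid or blood genes was 1678 to 3215 CPM in the stromal cells of the 6 libraries and 9422 to 13670 CPM in the other cells. The share of cells without any UMI of these genes was 33.5% to 59.5% in stromal cells and 1.44% to 3.13% in the others. Whether these UMIs came from free RNA, from attached progenitors or from doublets was not tested, and no cells were removed as doublets. No barcode was shared between libraries.

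Most stromal barcodes were lost to the filters on depth and mitochondrial RNA. Without the limits on UMIs and mitochondrial share, 7861 barcodes met the matrix-gene rule, of which 2171 (27.6%) were kept. The mitochondrial limit alone left out 4387 (55.8%), the limit on UMIs alone 173, and both together 1130. Of the other barcodes with at least 200 genes, 75.3% were kept.

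The share kept differed widely among libraries. It was 82.6% in WT DN2a (95% exact binomial interval 80.6 to 84.5) and 32.8% in ΔTE DN2a (30.4 to 35.1). In WT DN1, WT DN2b, ΔTE DN1 and ΔTE DN2b it was 10.7%, 9.55%, 8.29% and 3.75%. The median mitochondrial share of stromal barcodes was 16.8% in WT DN2a and 35.1% to 46.9% in the other 5 libraries, so that WT DN2a supplied 1257 of the stromal cells.

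**Figure D1:**
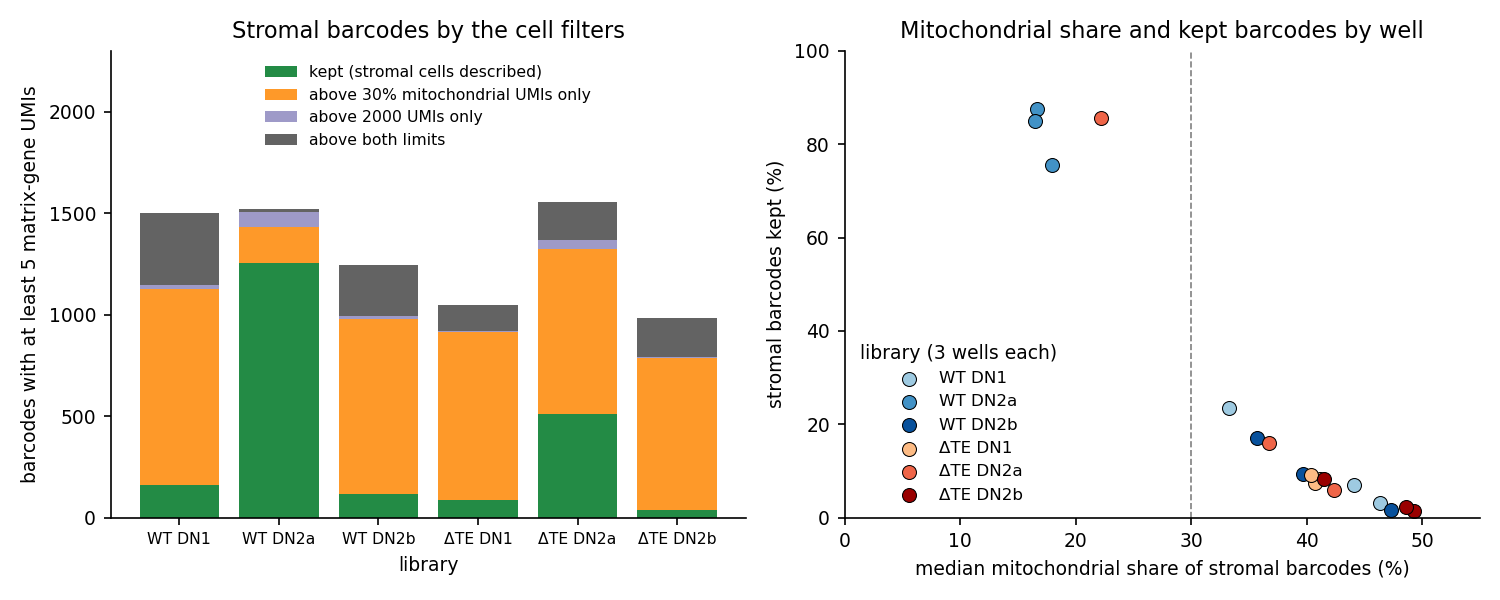
Left, barcodes with at least 200 genes and at least 5 matrix-gene UMIs in each library, split by the filters they passed. Right, for the 3 wells of each library, the share of these barcodes that was kept against their median mitochondrial share in percent, with the limit of 30% as a dashed line; the 3 wells of WT DN2a and the second well of ΔTE DN2a lie left of the line with over 75% kept, and the other wells lie right of it with under 24% kept.

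The wells of 1 library also differed. Each barcode carried a well name, and the cells of a library came from 3 wells. Whether these were splits of 1 culture is not given in the sources used here. Wells were not treated as replicates. In ΔTE DN2a the second well kept 85.6% of its stromal barcodes (median mitochondrial share 22.2%), against 16.0% and 6.03% in the first and the third well. That well supplied 386 of the 510 stromal cells of the library. Levels below were therefore checked by well where a result turned on them.

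As a share of kept cells, the stromal cells made up 1.47% in WT DN1 (95% exact binomial interval 1.26 to 1.72), 6.45% in WT DN2a (6.11 to 6.80) and 2.40% in WT DN2b (1.99 to 2.86). They made up 0.845% in ΔTE DN1 (0.677 to 1.04), 4.40% in ΔTE DN2a (4.03 to 4.79) and 1.09% in ΔTE DN2b (0.767 to 1.496). These intervals cover counting error only. The ΔTE share was lower at each start, by log2 ratios of -0.80, -0.55 and -1.14 (mean -0.83, exact permutation of genotype within starts, two-sided p = 0.25, the smallest that 3 pairs allow).

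The difference in shares changed with the mitochondrial limit. Without it the 3 ratios were -0.11, 0.22 and -0.21 (mean -0.03, exact permutation p = 1), and with neither limit they were -0.31, 0.35 and -0.22. The share of stromal barcodes was then 7.55% in WT DN2a and 14.3% in WT DN2b. Stromal barcodes above the mitochondrial limit, at any UMI count, were 12.5% of those in WT DN2a and 64.2% to 95.8% in the other 5 libraries, and the part of this difference in the shares above cannot be told apart from how many feeder cells stayed.

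The stromal cells had a matrix-producing, contractile and niche-ligand profile. UMIs were summed per library over the stromal and over the other kept cells, and the sums were compared with library as a block. A gene was called at an adjusted p under 0.05 (edgeR quasi-likelihood, Benjamini-Hochberg) and at least a 2-fold difference. Of 9640 genes tested, 1794 (18.6%) were called higher and 1728 (17.9%) lower, and the median log2 ratio over all genes was -0.11. Because the cells were chosen by their own RNA, these calls describe the profile and are not evidence for it. The 8 rule genes received no test. With the 2 groups scaled by total UMIs or by DESeq2 size factors, the median shifted by -0.20 or -0.19, and 40.7% or 41.2% of called genes were higher, against 50.9%.

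The rule genes themselves were present in each library. Col1a2, a chain of type I collagen, was at 3620, 4432 and 3899 CPM in stromal cells of WT DN1, WT DN2a and WT DN2b, and at 3599, 3962 and 3476 CPM in ΔTE DN1, ΔTE DN2a and ΔTE DN2b. In the other cells it was at 20.1 to 84.6 CPM, which includes cells just under the threshold. These values follow from the rule.

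Structural matrix genes outside the rule were high throughout. Of 13 tested collagen genes, 11 were called higher and 0 lower (median log2 ratio 5.78), and of 22 tested matrix glycoprotein and proteoglycan genes all 22 were (median 5.46). Bgn encodes biglycan, a small proteoglycan that binds collagen fibrils. It was at 2764, 3918 and 3623 CPM in the WT DN1, DN2a and DN2b libraries and at 2559, 4747 and 4316 CPM in the ΔTE libraries of the same order. The other cells held 30.7 to 128 CPM, and the log2 ratio was 6.18 ± 0.17 (SE, 6 libraries). The ranges of the stromal and the other cells did not overlap.

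Type VI collagen, which forms beaded filaments around cells, was represented by Col6a1 (log2 ratio 6.05 ± 0.17) and Col6a2 (6.25 ± 0.17). Col2a1, the main collagen of cartilage, was at 319 to 582 CPM in the 6 libraries against 2.39 to 10.2 CPM in the others (6.47 ± 0.19). Thbs1, which encodes thrombospondin 1, was at 5.33 ± 0.16 and Vcan, a large proteoglycan, at 5.41 ± 0.16. Lum (lumican) had no UMI in stromal cells and Dcn (decorin), another proteoglycan of many fibroblasts, had 1. Bgn, Dcn and Lum belong to the same family of small proteoglycans, of which Bgn was the 1 detected at depth.

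Genes that make, cross-link and cut collagen were also high. Of 18 tested genes of collagen maturation, 15 were called higher and 0 lower. Lox, the enzyme that cross-links collagen and elastin, was at 1104 to 1787 CPM in stromal cells and 7.68 to 43.8 CPM in the others (6.32 ± 0.17). Serpinh1, the collagen chaperone HSP47, was at 6.24 ± 0.17 and Pcolce, an enhancer of procollagen cleavage, at 6.01 ± 0.16, while P4hb, a subunit of prolyl hydroxylase used in many cells, was at 0.99 ± 0.14 and not called. All 9 tested genes of matrix remodelling were called higher (median 5.52), among them the membrane protease Mmp14 (5.83 ± 0.16) and the inhibitor Timp2 (5.29 ± 0.16). Mmp3 and Serpine2 had no UMI.

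Markers of stromal identity outside the rule were compared as well. All 7 tested of 12 markers were called higher, with Prrx1 at 5.99 ± 0.16, Pdgfra at 5.35 ± 0.26 and Cdh11 at 5.31 ± 0.20. Pdgfrb, a growth factor receptor of mural and stromal cells, was at 160 to 360 CPM against 18.9 to 64.9 CPM (3.02 ± 0.16). The intermediate filament gene Vim was at 2079 to 2965 CPM against 168 to 342 CPM (3.58 ± 0.15). The lymphoid or blood list went the other way, with 23 of 23 tested genes lower (median -2.01). Both tested endothelial genes, Pecam1 and Erg, were lower, Emcn and Tie1 had no UMI, and 2 of 3 tested myeloid genes were lower. Pecam1 and Erg were at 486 and 292 CPM in the other cells, so their lower level says little about endothelial cells. The tested markers thus went with the label of a stromal cell, while Lum and Dcn did not, and the rest of the 12 were not tested. Because the cells were chosen by matrix RNA, these markers describe them and do not test the label.

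**Figure D2:**
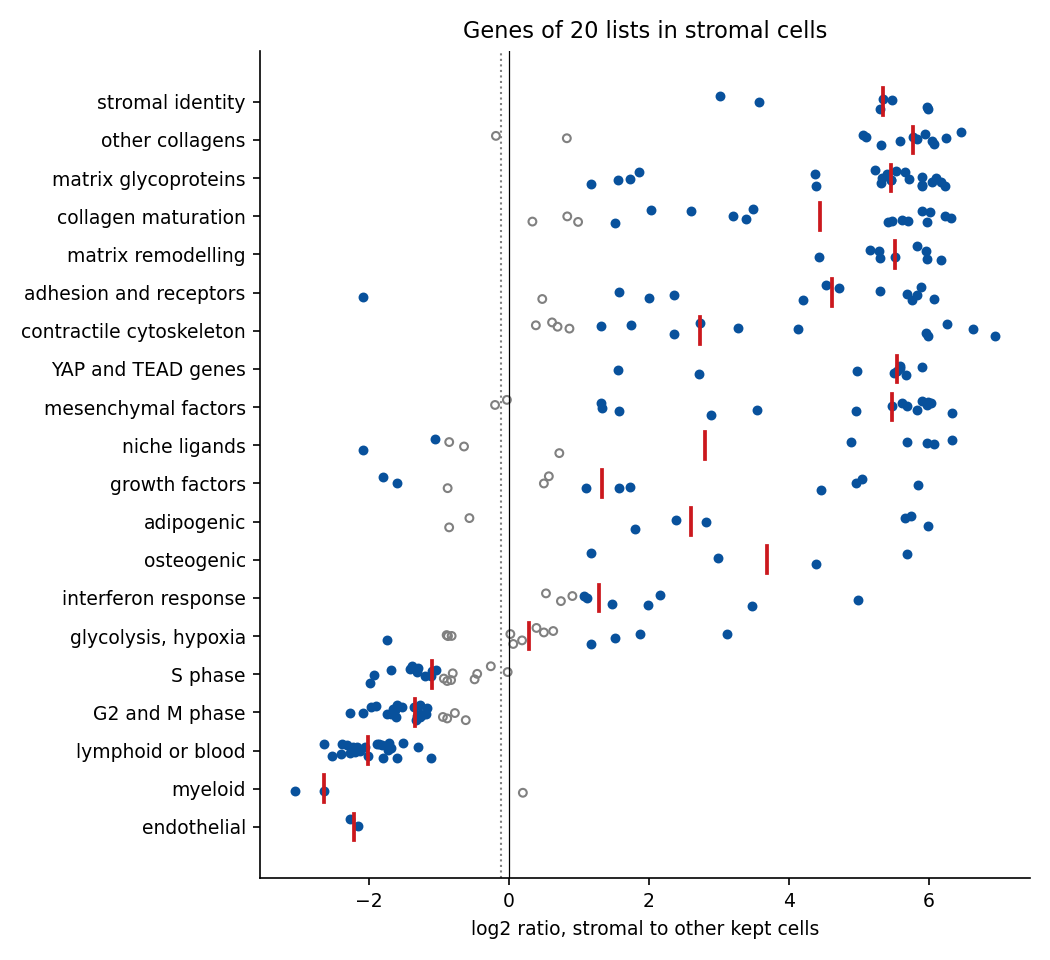
Log2 ratio of stromal to other kept cells for each tested gene of 20 gene lists; filled points were called, open points were not, the red bar is the median of the list and the dotted line the median of all genes (-0.11). Matrix, remodelling, YAP and TEAD and mesenchymal factor lists have medians over 5, and lymphoid, myeloid and cell-cycle lists have medians under -1.

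The niche ligands divided into a high and a very low set. Cxcl12, the chemokine that retains progenitors in marrow, was at 1952, 2730 and 3593 CPM in the WT DN1, DN2a and DN2b libraries and at 1999, 3188 and 3197 CPM in the ΔTE ones. The other cells held 21.9 to 106 CPM (log2 ratio 6.07 ± 0.17). Kitl, which encodes KIT ligand, was at 580, 908 and 957 CPM and at 656, 780 and 759 CPM, against 7.51 to 33.0 CPM (5.97 ± 0.16). For both genes the lowest stromal value was well above the highest value of the other cells.

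Bmp4, a bone morphogenetic protein, was at 326 to 639 CPM (6.34 ± 0.19), and Jag1, a Notch ligand other than DL1, had 134 UMIs (4.89 ± 0.32). Csf1 encodes the macrophage growth factor whose working protein the donor mice of the OP9 line lacked, and its transcript was at 297, 345 and 375 CPM in the WT libraries and at 272, 306 and 480 CPM in the ΔTE ones (5.69 ± 0.19). A transcript level does not show whether protein is made.

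The ligands by which OP9-DL1 cells are best known were near the floor. Dll1 had 17 UMIs, or 14.5, 10.9 and 9.87 CPM in the WT libraries and 16.0, 7.60 and 0 CPM in the ΔTE ones. The other cells held at most 0.591 CPM of it. Il7, the cytokine required by early T cells, had 18 UMIs, and Vcam1, an adhesion ligand of marrow stroma, had 83. Dll4 and Ccl19 had none. They were not tested because of their low counts. Over all 7861 stromal barcodes, with neither limit, Dll1 was at 8.92, 10.3 and 8.04 CPM in the WT libraries and at 16.5, 8.68 and 10.9 CPM in the ΔTE ones, for 106 UMIs in all. Il7 had 123 UMIs there (10.2 to 15.7 CPM over libraries) and Vcam1 351 (23.1 to 49.0 CPM), and the other barcodes held 0.518, 0.871 and 2.26 CPM of the 3 genes. The larger set thus showed all 3 genes in each library at a low level. Whether the introduced Dll1 transcript was counted in full was not tested.

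Angpt1 and Lif were lower in stromal than in other cells. Angpt1, a ligand of the receptor Tek, was at 120 to 832 CPM in stromal cells against 495 to 1714 CPM (-1.05 ± 0.15), and fell short of a 2-fold difference in 5 of 22 alternative settings. In all, 5 of 10 tested niche ligands were called higher and 2 lower. At 3 or more rule UMIs, without either limit or both, and without the 2 wells described below, 1 was called lower. Among 12 tested growth factors and their modulators 7 were higher, including Fgf7 (5.85 ± 0.23), and Tgfb1 and Tgfbr1 were lower.

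Shares of cells with a UMI were compared after each cell was thinned to 300 UMIs, which left 2058 stromal and 49126 other cells. Bgn was detected in 65.7% of stromal cells (95% exact interval 63.7 to 67.8) and in 1.57% of the others, and Cxcl12 in 55.005% (52.8 to 57.2) and 1.36%. Kitl was detected in 23.6% and 0.446%, and Dll1 in 7 and Il7 in 4 of the 2058 stromal cells. The intervals pool cells of all libraries and cover counting error only. By library, the share of stromal cells was 53.6% to 72.4% for Bgn and 43.5% to 61.9% for Cxcl12. Unthinned, the shares in stromal cells were 85.8% for Bgn, 77.3% for Cxcl12 and 43.1% for Kitl. Ptprc, the leukocyte surface phosphatase CD45, was detected in 3.11% of stromal and 17.3% of other cells, and Il2ra, the CD25 chain that marks DN2 cells, in 13.8% and 48.8%.

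Transcription factors of connective tissue were led by Prrx1, Ebf1 and Osr1. Of 17 tested factors of this kind, 15 were called higher and 0 lower (median 5.47). Ebf1, which acts in B cells and in marrow stroma, was at 1103, 973 and 997 CPM in the WT DN1, DN2a and DN2b libraries and at 960, 846 and 879 CPM in the ΔTE ones (6.03 ± 0.16). The other cells held 7.09 to 35.7 CPM. Osr1 was at 6.33 ± 0.34, Snai2 at 300 UMIs was called higher as well, and Foxp1 (-0.03) and Zeb1 (-0.20) were not called.

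Genes of the fat lineage were present in part. Lpl, the lipase that releases fatty acids from lipoproteins, was at 348, 473 and 553 CPM in the WT libraries and at 304, 537 and 759 CPM in the ΔTE ones (5.66 ± 0.17). Fabp4, a fatty acid carrier, was at 96.0 to 320 CPM (5.998 ± 0.23), and Pparg, the master factor of fat cells, at 185 to 283 CPM against 26.003 to 43.2 CPM (2.81 ± 0.17). Of the products of mature fat cells, Adipoq (adiponectin) had 24 UMIs, Plin1 had 1 and Cfd had none. In all, 6 of 8 tested genes of the fat lineage were called higher and 0 lower.

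The bone and cartilage list was likewise split. Sox9, a cartilage factor, was at 116 to 251 CPM against 2.22 to 6.52 CPM (5.69 ± 0.24), and Spp1, which encodes osteopontin, at 160 to 256 CPM (4.39 ± 0.20). Runx2, a bone factor that T-cell progenitors also express, was at 200 to 448 CPM against 128 to 214 CPM (1.17 ± 0.14), with ranges that overlapped. All 4 tested genes were called higher, but Runx2 fell short of a 2-fold difference in 6 of 22 alternative settings, so that 3 of 4 were called with DESeq2 size factors and with the DESeq2 test. Bglap, Ibsp, Sost, Acan, Msx2 and Bmp2 had no UMI. A gene with no UMI had a level of at most 1.83 CPM by the limit that a count of 0 allows (3 UMIs in 1639910), for counting error only.

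**Figure D3:**
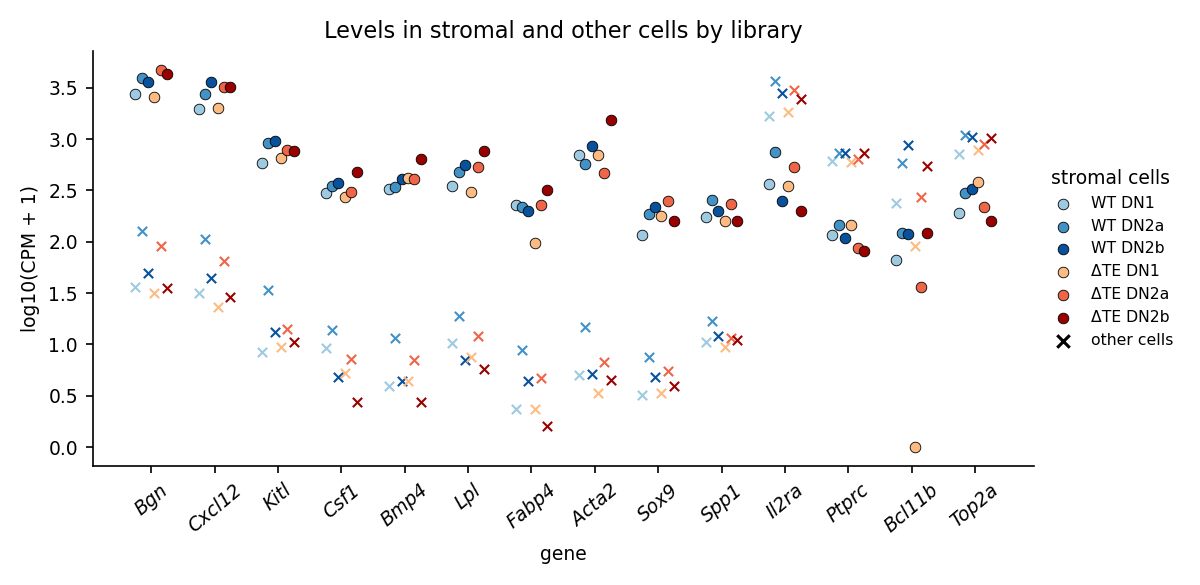
Level of 14 genes, as log10 of CPM plus 1, in stromal cells (circles) and other kept cells (crosses) of the 6 libraries. Circles lie above all crosses for Bgn, Cxcl12, Kitl, Csf1, Bmp4, Lpl, Fabp4, Acta2, Sox9 and Spp1, and crosses lie above all circles for Il2ra, Ptprc and Top2a.

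The contractile cytoskeleton was the list with the single highest ratio. Acta2, smooth-muscle actin, was at 696, 573 and 849 CPM in the WT DN1, DN2a and DN2b libraries and at 704, 463 and 1518 CPM in the ΔTE ones. The other cells held 2.40 to 13.7 CPM (6.95 ± 0.17). Myl9, a myosin light chain (6.63 ± 0.21), Tagln, an actin-binding protein of smooth muscle (6.26 ± 0.33), and Cald1, caldesmon (5.99 ± 0.16), were also called higher. Late smooth-muscle genes were scarce, with 8 UMIs of Myh11 and 1 of Cnn1. Of 15 tested genes 11 were called higher and 0 lower. All 9 tested genes of the YAP and TEAD pathway, which responds to stretch and stiffness, were called higher (median 5.55), including Tead1 (5.90 ± 0.19) and Ccn1 (5.50 ± 0.28).

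Because the contractile genes were high together, their promoters (RefSeq, GRCm38.p6, from 250 bases before to 50 after the start) were searched for a CArG box, the element bound by serum response factor. The element reads the same class of letters on both strands, and no other motif was searched. It was found at 3 of the 16 matched genes of the list (18.8%), against 535 of 32851 promoters (1.63%). The list was counted by gene and the background by single promoter, so these shares are not the same measure. The 3 windows are printed with the element in capitals, 10 bases on each side, upstream of the start of transcription.
Cnn2 (calponin 2), chr10:79988534-79988563, plus strand, 56 bases before the start: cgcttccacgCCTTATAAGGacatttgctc
Myl9 (myosin light chain 9), chr2:156775293-156775322, plus strand, 161 bases before the start: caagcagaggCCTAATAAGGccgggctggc
Vcl (vinculin), chr14:20929161-20929190, plus strand, 227 bases before the start: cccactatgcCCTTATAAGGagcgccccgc
A match describes the letters in the window. No binding was measured.

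Cell-cycle genes were lower in stromal than in other cells. Of 24 tested genes of the G2 and M phases 20 were called lower and 0 higher (median -1.34), and of 19 of the S phase 11 were lower (7 without the upper limit on UMIs) and 0 higher (median -1.10). Top2a, a topoisomerase of dividing cells, was at 160 to 384 CPM in stromal cells and 708 to 1106 CPM in the others (-1.62 ± 0.16). In stromal cells without any UMI of the 24 lymphoid genes, 21 of the 24 G2 and M phase genes and 13 of the 19 S phase genes were called lower.

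Interferon-response genes were modestly higher. Of 10 tested genes 7 were called higher and 0 lower (median 1.29; 4 of 6 higher with cells thinned to 300 UMIs), among them Isg15, a ubiquitin-like protein (3.48 ± 0.33, 91 UMIs), and Ifit1 (4.99 ± 0.37). Of 14 tested genes of glycolysis and hypoxia 4 were higher, including Bnip3 (3.12 ± 0.32), and Egln3 was lower. The counts became 4 higher and 4 lower with DESeq2 size factors or total UMIs, and 3 higher and 5 lower of 16 with every gene with a UMI tested. The imprinted growth gene Igf2r was at 69.1 to 169 CPM against 3.26 to 19.5 CPM (4.25 ± 0.25), and Igf2, Peg3, Ndn and Cdkn1c had no UMI. The 1 tested globin gene, Hbb-bt, was lower (-1.77 ± 0.18). Of 4 tested Y-linked genes, Ddx3y was called higher (1.11 ± 0.21) and the rest were not. With DESeq2 size factors, total UMIs, the DESeq2 test or every gene with a UMI, 0 of the 4 were called, with Ddx3y at 0.86 to 0.92.

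Outside the lists, the highest ratios among genes with at least 100 UMIs were those of Igf2bp1, an RNA-binding protein (6.69 ± 0.38), and Il1rn, the interleukin 1 receptor antagonist. Il1rn was at 399, 643 and 513 CPM in the WT DN1, DN2a and DN2b libraries and at 432, 717 and 599 CPM in the ΔTE ones, against 2.36 to 16.6 CPM (6.28 ± 0.17). Fstl1, a secreted relative of follistatin (6.27 ± 0.17), Nfatc4 (6.24 ± 0.38), Fscn1, which bundles actin (6.23 ± 0.18), Sgce (6.21 ± 0.37), Ddit4l (6.18 ± 0.31), Actg2, enteric smooth-muscle actin (6.15 ± 0.38), Copz2 (6.14 ± 0.31) and Cavin3, a coat protein of caveolae (6.12 ± 0.24), followed. The lowest were Itga9 (-3.9997 ± 0.42), Clnk (-2.95 ± 0.25), Fry (-2.92 ± 0.37), Adamts6 (-2.90 ± 0.29) and Epsti1 (-2.86 ± 0.29).

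By UMIs, which are not corrected for transcript length, the most abundant non-mitochondrial genes in stromal cells were Actb (14663 UMIs), Col1a2, Camk1d, Bgn, Cxcl12, Vim, CT010467.1, Col1a1, Fth1 and Fstl1. Camk1d, a calcium-dependent kinase, had 6718 UMIs and varied more than the others, from 1998 to 10315 CPM over libraries. By well it ranged from 569 CPM in the second well of ΔTE DN2a to 13932 CPM in the third well of WT DN2b. The other cells of those wells were at 262 and 6434 CPM, so the level of Camk1d moved with the well in both classes.

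The next comparison asked whether the feeder cells differed with the genotype of the progenitors grown on them. The 3 WT and 3 ΔTE sums were fitted with the start as a block. Each condition was 1 library, so genotype cannot be told apart from differences between cultures and wells. The p-values hold for these libraries only. In edgeR they draw on a spread moderated over genes, so they do not measure the spread of a single gene between the libraries alone. Of 2451 genes tested, 6 (0.245%) were called at an adjusted p under 0.05 (edgeR) and 126 were at an unadjusted p under 0.05, while DESeq2 called 0. Lars2 and mt-Nd4 were higher with ΔTE, and Vcl, Ccn1, Dusp5 and Camk1d were lower. Without WT DN2a, or without ΔTE DN2a, 0 genes were called. The call of Camk1d was lost in 17 of 20 alternative settings, with a ratio of 0.0031 without the mitochondrial limit and 0.058 with neither limit, and that of mt-Nd4 in 15 of 20.

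Vcl, vinculin of focal adhesions, was at 472, 437 and 582 CPM in stromal cells with WT DN1, DN2a and DN2b progenitors. With ΔTE progenitors it was at 240, 210 and 120 CPM (log2 ratio -1.09 ± 0.25, adjusted p = 0.0086, edgeR). Ccn1, a secreted matricellular protein, was at 152, 215 and 178 CPM with WT and at 64.0, 76.0 and 39.96 CPM with ΔTE (-1.39 ± 0.31, adjusted p = 0.0086, edgeR). Neither gene overlapped between the genotypes, as was the case for 10% of the 2451 genes tested. Some ΔTE values rested on very few UMIs. In ΔTE DN2b, Vcl had 3 UMIs and Ccn1 had 1, all in the first well. In ΔTE DN1, Ccn1 had 4 UMIs, all in the first well. The call of Vcl was lost in 10 of 20 alternative settings and that of Ccn1 in 8 of 18. Without the third well of WT DN2b and the first well of ΔTE DN2a, 2 wells chosen after the data were seen because Gphn, Lars2 and Camk1d stood apart there, Vcl was the 1 gene called (-1.19).

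The call of Lars2, a mitochondrial leucyl-tRNA synthetase, rested on 1 well. Lars2 was at 975 CPM in stromal cells of ΔTE DN2a and at 144 to 267 CPM in the other 5 libraries. Within ΔTE DN2a it was at 3952 CPM in the first well and at 234 and 301 CPM in the second and the third. The other cells of that first well held 1817 CPM. Without ΔTE DN2a, or without WT DN2a, its start-matched partner, the ratio was -0.22, against 1.81 in all libraries.

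**Figure D4:**
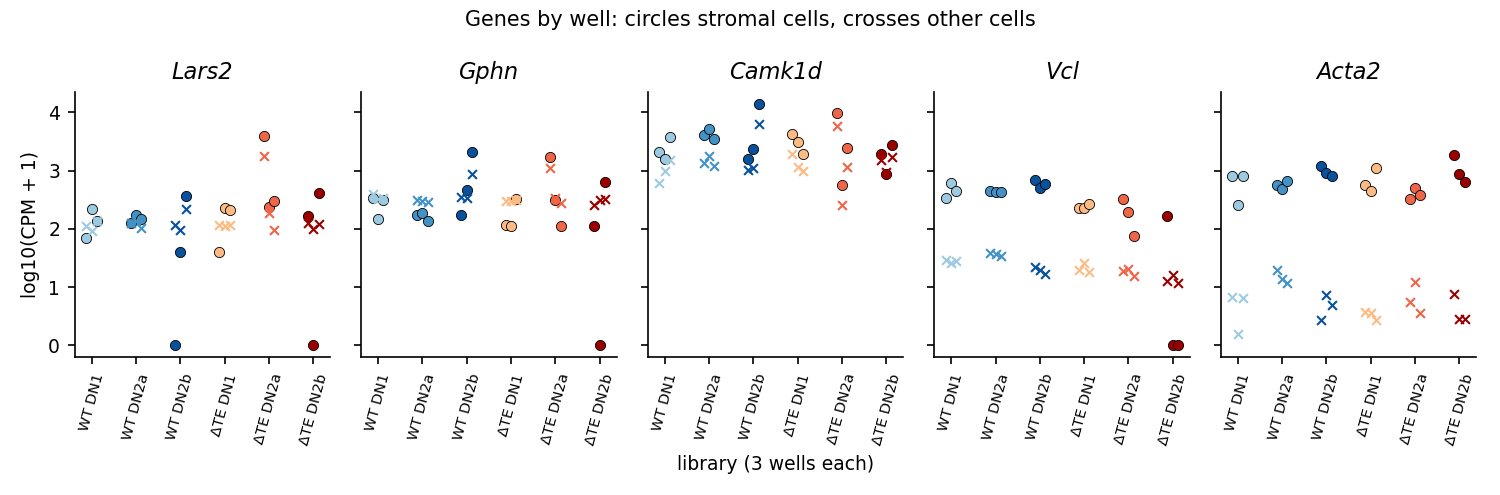
Level of 5 genes, as log10 of CPM plus 1, in the 3 wells of each library for stromal cells (circles) and other cells (crosses). Lars2 is at 3952 CPM in stromal cells of the first well of ΔTE DN2a, Gphn is at 2096 CPM in the third well of WT DN2b, and in both wells the crosses are raised too; Vcl shows no such well.

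By starting stage, 26 of 2451 genes (1.06%) were called (edgeR F test over both start coefficients), 233 were at an unadjusted p under 0.05, and DESeq2 called 0. The first was Gphn, which encodes the scaffold gephyrin. It was at 1579 CPM in stromal cells of WT DN2b, 577 CPM in ΔTE DN2a and 167 to 283 CPM elsewhere. The third well of WT DN2b (2096 CPM) and the first of ΔTE DN2a (1714 CPM) carried both values. Without those wells 9 of the 26 genes were called.

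Several genes called by start were higher in the progenitors than in the stromal cells. Arhgap15, a regulator of Rac in blood cells, was at 305 and 528 CPM in stromal cells with DN1 (WT, ΔTE), 250 and 111 CPM with DN2a, and 98.7 and 79.9 CPM with DN2b. Its ratio of stromal to other cells was -2.64 ± 0.17. Rnf220, Lrmda, Elmo1, Ptpre and Il2ra were of the same kind, with ratios of -2.49 to -1.77. When stromal cells with any UMI of the 24 lymphoid genes were left out, 0 genes were called by start (and 0 by genotype) in the remaining cells, which are fewer.

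Among the first 10 genes by p, Acta2 and Ly6a were the ones called higher in stromal than in other cells. Ly6a, the surface protein Sca-1 of stromal and stem cells, was at 138 and 176 CPM with DN1 (WT, ΔTE), 234 and 314 CPM with DN2a and 326 and 839 CPM with DN2b (adjusted p = 0.0080, edgeR). For Acta2 the values were 696 and 704, 573 and 463, and 849 and 1518 CPM (adjusted p = 0.0058, edgeR). Both were highest with ΔTE DN2b, the library with 37 stromal cells. In its first well, with 24 of these cells, Acta2 was at 1840 CPM, and in the second and the third at 868 and 626 CPM. Over all stromal barcodes, with neither limit, Acta2 was at 321 and 314 CPM with DN1, 498 and 279 CPM with DN2a, and 346 and 332 CPM with DN2b, so that ΔTE DN2b no longer stood above the rest. The calls of Acta2 and Ly6a by start were each lost in 11 of 20 alternative settings.

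Because the filters kept few stromal barcodes outside WT DN2a, the kept barcodes were compared with those above the mitochondrial limit only, leaving out mitochondrial genes. Of 7057 genes 47 (0.666%) were called in either direction (edgeR, library as a block), 24 higher and 23 lower in the kept ones, and 6 were called without WT DN2a. Acta2 was higher (0.74 ± 0.13), as were Tox (1.07 ± 0.21) and Gzma (0.89 ± 0.18), genes that the other cells expressed more. Mme, a membrane peptidase of stromal cells, was lower in the kept barcodes (-0.66 ± 0.14), and so was Eda (-1.15 ± 0.23). At an unadjusted p under 0.05 there were 711 genes.

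The genotype comparison was therefore repeated on all 7861 stromal barcodes, with neither limit, a choice made after the data were seen. Of 10233 genes 88 (0.86%) were called (edgeR), 61 lower and 27 higher with ΔTE progenitors, and DESeq2 called 11. With each library left out in turn, 42 to 89 genes were called. Among the 12 smallest p-values were those of Egr1, Sergef, Ccn1, Dusp5, Cmss1, Vcl, Fhl2, Ier2, Bcl11b, Lmod1 and Samd4, of which Sergef and Cmss1 were higher with ΔTE.

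Egr1, an immediate-early transcription factor switched on by serum, growth factors and stress, had the lowest p. It was at 81.9, 153 and 204 CPM in stromal barcodes with WT DN1, DN2a and DN2b progenitors and at 29.0, 29.1 and 40.8 CPM with ΔTE (log2 ratio -1.96 ± 0.14, adjusted p = 8.4e-31, edgeR). The other barcodes of the same libraries held 5.74 to 18.5 CPM. In the 2171 kept stromal cells Egr1 had 210 UMIs and was not among the 6 genes called. Nor was any gene of the immediate-early list below. By well, not taken as replicates, the 9 WT wells lay between 73.8 and 239 CPM and the 9 ΔTE wells between 12.1 and 49.3 CPM. The 3 WT and 3 ΔTE libraries did not overlap, which held for 7.41% of the 10233 genes. The ratio was -2.11 to -1.82 with any 1 library left out. The CPM totals include mitochondrial UMIs. Their median share in stromal barcodes was 41.8%, 16.8% and 40.4% with WT DN1, DN2a and DN2b and 40.8%, 35.1% and 46.9% with ΔTE. How much of the ratio goes with this share was not tested. As above, each condition was 1 library, so genotype cannot be told apart from differences between cultures. The SE and the p-value draw on a spread moderated over genes and do not measure the spread of Egr1 between the libraries alone.

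Other immediate-early genes were lower too, though not all. Ier2 was at 33.3, 80.6 and 52.8 CPM with WT and at 21.2, 18.4 and 13.6 CPM with ΔTE (-1.47 ± 0.19). Fos, a subunit of AP-1, was at 8.52, 21.4 and 19.1 CPM with WT and at 3.92, 3.07 and 4.08 CPM with ΔTE (-1.97 ± 0.37). Zfp36 (-2.09 ± 0.32), Nr4a1 (-1.72 ± 0.29), Egr3 (-2.71 ± 0.45), Junb (-0.73 ± 0.19) and Btg2 (-0.57 ± 0.15) were also called. Jun (-0.14 ± 0.15), Klf4 (-0.10 ± 0.16) and Klf6 (-0.01 ± 0.11) were not. Of 20 immediate-early genes, a list written after the values were seen and so no independent evidence, 17 were tested, 8 were lower and 0 higher, with a median of -0.57 against 0.00 over all genes. Of all 10233 genes, 61 were called lower. In ΔTE DN1, DN2a and DN2b, Egr3 had 1, 4 and 3 UMIs, Fos 5, 6 and 6, and Zfp36 7, 5 and 10.

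Ccn1, Vcl, Fhl2, Lmod1, Dusp5 and Thbs1 were lower with ΔTE as well. Ccn1 was at 95.3, 190 and 126 CPM and at 56.4, 56.2 and 52.3 CPM (-1.13 ± 0.13), and Vcl at 306, 395 and 285 CPM and at 178, 168 and 130 CPM (-0.89 ± 0.11). Fhl2, a LIM protein (-1.002 ± 0.13), Lmod1, an actin nucleator of smooth muscle (-1.31 ± 0.18), Dusp5, a phosphatase of ERK (-1.14 ± 0.14), and Thbs1 (-0.67 ± 0.11) followed. The levels of these 6 genes, picked from the called ones after their values were seen, did not overlap between the WT and ΔTE libraries. The same held for 7.41% of the 10233 genes tested.

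The contractile genes highest in the stromal profile did not follow. Acta2 was at 321, 498 and 346 CPM with WT and at 314, 279 and 332 CPM with ΔTE (-0.16 ± 0.11), and Myl9 (-0.04 ± 0.11) and Tagln (-0.22 ± 0.15) were not called. Of the 3 genes printed with a CArG box, Vcl was called lower, and Myl9 and Cnn2 (-0.12 ± 0.11) were not called.

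**Figure D5:**
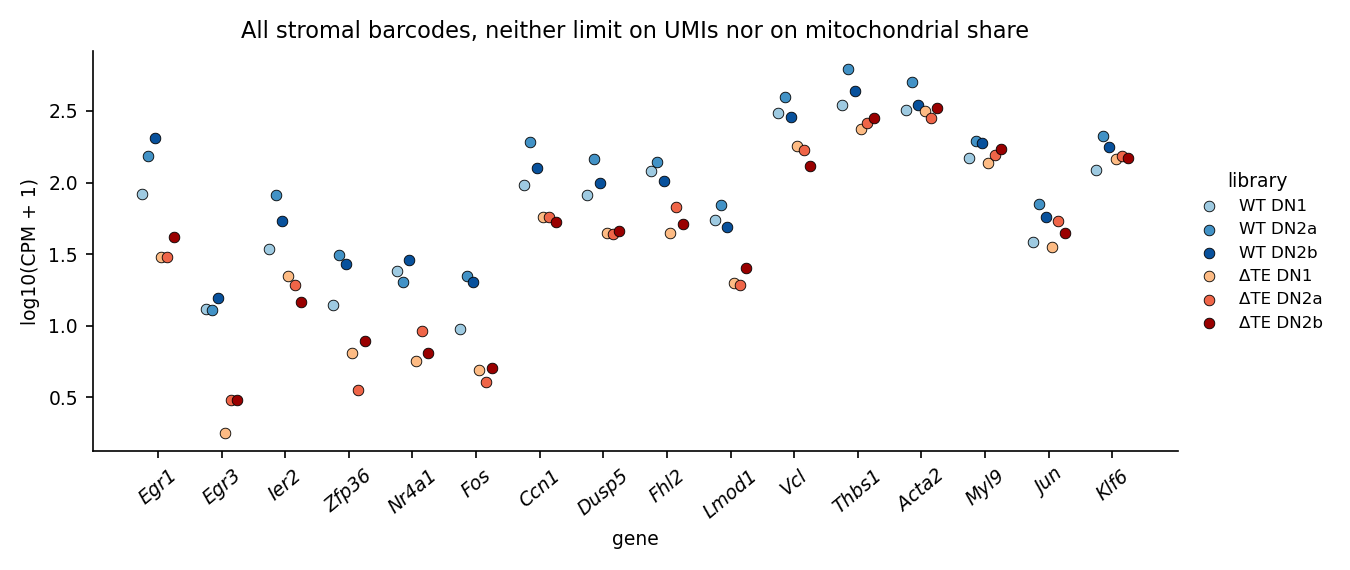
Level of 16 genes, as log10 of CPM plus 1, over all stromal barcodes of each library with neither limit; blue shades are WT and orange to red shades ΔTE. The 3 WT points lie above the 3 ΔTE points for Egr1 through Thbs1 and are mixed with them for Acta2, Myl9, Jun and Klf6; the genes were picked after their values were seen.

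Some calls followed the co-cultured cells or 1 library. Bcl11b, the gene whose enhancer is deleted, was lower in stromal barcodes with ΔTE (-1.14 ± 0.15), at 43.8, 123 and 105 CPM against 17.3, 32.7 and 59.8 CPM. The other cells held 228, 576 and 841 CPM with WT and 86.4, 254 and 505 CPM with ΔTE. Sergef was at 242 CPM in ΔTE DN1 and at 15.0 to 27.4 CPM in the other 5 libraries, and the other cells of ΔTE DN1 held 250 CPM. Its ratio of 1.92 became -0.12 without ΔTE DN1. Egr1, Ccn1 and Vcl were lower in the other cells than in the stromal barcodes of each library. Dusp5 and Ier2 were not. With ΔTE DN1, DN2a and DN2b the other cells held 87.4, 83.2 and 81.0 CPM of Dusp5 and 35.2, 41.0 and 35.4 CPM of Ier2. The stromal barcodes there held less of both. With WT the other cells held less, except for Dusp5 in WT DN1 (96.9 CPM against 81.1 CPM).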

How the data were processed

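The deposited files held whole-number UMI counts per gene and barcode for each of 6 libraries; the authors made them with sci-RNA-seq3, the labels name the genome build mm9, and the aligner and annotation are not given in the sources used here. The 1170130 barcodes and 28048 genes were used as deposited. The filter limits were those the study gives, under which fewer cells were kept here than the study reports. Xist, Mx1 and some imprinted genes of the lists are not analysed here.

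The members, gene lists and tests were chosen with earlier results of these data known. UMIs were summed per library and class (25026 to 918250 UMIs for stromal cells, 1692110 to 8130478 for other cells) and tested with edgeR 4.0.16 in R 4.3.3 (quasi-likelihood test, TMM scaling, filterByExpr), with DESeq2 1.42.0 as an alternative. SE values are the absolute log2 ratio divided by the square root of the F value. P-values were adjusted over all genes tested. Stromal cells were compared with other kept cells with library as a block, genotype with start as a block (3 against 3 libraries, 2 residual degrees of freedom) and start with genotype as a block. Shares have exact Clopper-Pearson intervals. The tests were run on simulated counts with a fixed spread, in which 200 genes were changed. Of 2-fold changes, 47% were recovered for stromal against other cells, 17.5% for genotype and 22% for start. Of 4-fold changes, 93%, 79.5% and 84.5% were recovered. A gene not called by genotype or start may thus still differ 2-fold. Level is given in CPM, UMIs per 1000000 UMIs of the summed cells.

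The genes named were at most 4 per list by UMIs, those at 0, the 10 highest and 5 lowest called ratios outside the lists with at least 100 UMIs measured or expected, the 10 genes with most UMIs, at most 5 genes called each way for genotype and start, and a fixed few. Jag1, Lif, Osr1, Snai2, Myl9, Tagln, Pdgfra, Ifit1, Bnip3, Egln3, Foxp1, Zeb1, Tgfb1, Tgfbr1, Adipoq, Plin1, Dcn, Myh11 and Cnn1, the genes compared by mitochondrial limit and those over all stromal barcodes were named after their values were seen. Where a symbol stood in several rows, the row with most UMIs was used. Strand was not considered, and genes that overlap or share near-identical copies are uncertain. No library had a replicate. 1 gene among those with the smallest p-values over all stromal barcodes is not reported here.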

Additional observations from a re-analysis of the deposited data

How the results depend on the processing

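The genotype comparison paired the WT and ΔTE libraries by start, and each condition had 1 library. Counts of genes called higher and lower in stromal cells stayed within 1.5 times, except with every gene with a UMI tested (2942 and 2602), and lay at 1693 to 2128 and 1599 to 1815 with each library left out in turn. Of the list counts, more genes were tested and called higher with every gene with a UMI and with neither limit: 9 and 8 niche ligands, 12 and 12 growth factor genes, 14 and 14 remodelling genes and 7 and 7 bone and cartilage genes. For the genotype of the progenitors, the 6 called genes became 0 with the DESeq2 test, with stromal cells without lymphoid UMIs and with rule UMIs of at least 1% of all, 1 at 10 or more rule UMIs, without the 2 wells and without the start as a covariate, 2 at 3 or more rule UMIs, 3 with total UMIs and without the upper limit on UMIs, 58 without the mitochondrial limit and 88 with neither limit (0 to 13 with each library left out). For the start, the 26 became 0 with the DESeq2 test, without lymphoid UMIs and at 1% of UMIs, 2 at 10 or more rule UMIs, 3 with total UMIs, 9 with every gene with a UMI and without the 2 wells, 10 without the upper limit, 16 with DESeq2 size factors, 144 without the mitochondrial limit and 316 with neither (3 to 30 with each library left out). Over all stromal barcodes, the 88 genes became 58 with total UMIs, 11 with the DESeq2 test and 17 without the start (42 to 89 with each library left out). Settings that leave out cells or libraries hold fewer UMIs, and for the rest the cause was not tested.

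The DN2a ratio of stromal shares turned to 0.22 without the mitochondrial limit and 0.35 with neither. Genes that turned direction were not called in stromal against other cells: Ldha (-0.029 with every gene, -0.064 with neither limit), Lyz2 (-0.10 with DESeq2, -0.20 at 10 or more rule UMIs, -0.010 with every gene, -0.49 without the library block, and -0.33 to 0.48 with each library left out) and Uty (-0.0072 with DESeq2 size factors, -0.062 with DESeq2, -0.029 with every gene, -0.21 without lymphoid UMIs, -0.018 with total UMIs). For genotype, Camk1d turned to 0.058 with neither limit and 0.0031 without the mitochondrial limit, Lars2 lay at -0.22 to 2.34 with each library left out, and Sergef at -0.12 to 2.69. The settings without lymphoid UMIs, with neither limit and without the 2 wells were chosen after the data were seen.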
